A study of Mus musculus with 703 samples.

Results

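Rab15 and BC048679 are 2 of the 19088 genes measured by RNA sequencing of gastrocnemius muscle in CC-RIX mice, the F1 offspring of crosses between inbred Collaborative Cross lines. They were chosen by symbol because earlier work on these same data had listed both as rising about 2-fold on the diet with 44% fat in all 20 strains, so their diet difference in untreated animals chose them and is given as a description. The series held 703 libraries, each labelled as 1 sample, from 20 strains with 19 parental lines. Animals of both sexes had a diet with 10% fat or a high-fat, high-sugar diet with 44% fat, both with added fiber, from 6 weeks of age, and some received metformin at 5 mg/mL in the drinking water from 7 months. The 469 untreated animals comprised 236 females and 233 males, 234 on 10% fat and 235 on 44% fat, and the metformin-treated animals comprised 57 females and 59 males on 10% fat and 59 females and 59 males on 44% fat. The study kept cohorts to 6 and 12 months, but the labels give no age for an animal. As metformin began at 7 months, treated animals can only belong to the 12-month cohort, whereas untreated ones may belong to either. Treatment and age thus cannot be told apart. A strain is a single F1 cross and many crosses share a parental line, so the 20 strains are not independent genetic backgrounds.

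Rab GTPases are small membrane-associated proteins that cycle between a GDP-bound and a GTP-bound form and, in the latter, recruit effectors that move, tether or fuse vesicles. Rab15 acts at early and recycling endosomes and is best known from neurons and from transferrin receptor recycling. In muscle and fat, other members of the family, among them Rab8a, Rab10 and Rab13, take part in the movement of the glucose transporter GLUT4 to the cell surface in response to insulin. BC048679 is a protein-coding gene that still carries the name of a cDNA clone, and no role is given for it here.

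Rab15 (ENSMUSG00000021062) lies on the minus strand at chr12:76797960-76822908 and BC048679 (ENSMUSG00000061877) on the minus strand at chr7:81494275-81498281, both in GRCm38. Rab15 sits within the span of the plus-strand gene Fntb, which encodes a subunit of protein farnesyltransferase, but by GENCODE none of the 4614 exonic bases of Rab15 fall in an exon of that gene. The 640 exonic bases of BC048679 overlap no other gene. Sequences before a RefSeq start of each gene are shown because the transcripts of both genes moved with diet. RefSeq lists 4 such windows for Rab15, of which the one farthest 5′ is shown, and 1 for BC048679. By GENCODE the Rab15 stretch lies inside the gene, downstream of its first exon. They are from RefSeq (GRCm38.p6), run 5′ to 3′ on the gene's strand, and hold capitals where a GC box (GGGCGG, either strand) or a CCAAT box (CCAAT, either strand) matched.
Rab15 (chr12:76822554-76822774, minus strand, between exons of the longest transcript): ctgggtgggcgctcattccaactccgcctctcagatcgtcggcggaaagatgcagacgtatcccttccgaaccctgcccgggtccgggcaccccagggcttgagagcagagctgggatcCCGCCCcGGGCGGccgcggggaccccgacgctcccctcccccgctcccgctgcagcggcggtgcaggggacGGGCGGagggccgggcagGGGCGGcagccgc
BC048679 (chr7:81498331-81498580, minus strand): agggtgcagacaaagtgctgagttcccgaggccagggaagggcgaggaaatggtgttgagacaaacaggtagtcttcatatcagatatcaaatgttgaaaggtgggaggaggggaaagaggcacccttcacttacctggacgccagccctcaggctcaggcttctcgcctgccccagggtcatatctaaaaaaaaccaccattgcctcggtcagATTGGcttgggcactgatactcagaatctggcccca
The Rab15 stretch held 4 GC boxes, a motif with at least 1 match in 28.7% of stretches of the same length from 32851 RefSeq promoters, and its GC content was 75.1% against a median of 52.04%. It held 25 CG pairs against a median of 5. The BC048679 stretch had a GC content of 53.2% against a median of 52.4%, 5 CG pairs against a median of 6, and 1 CCAAT box, which 33.8% of promoters hold. The letters AGGTCA, a core element bound by many nuclear receptors, were found on neither strand of either stretch, and 12.6% and 14.02% of promoters hold them in stretches of these lengths.

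Levels are given as CPM, counts per 1000000 counts of a library after TMM scaling of its total. Libraries held 27368536 to 96100529 estimated counts, with a median of 47876086. Rab15 had 14 to 1329 counts per library with a median of 155, and BC048679 had 0 to 1503 with a median of 76. BC048679 was at 0 in 7 libraries and at 3 counts or fewer in 19. In 15 libraries the level of Xist, the RNA of the inactive X chromosome in females, lay on the other sex's side of the midpoint between the sex medians. Another 4 libraries were closest in profile to another strain than their label, 19 libraries in all. The diet, sex, strain and treatment tests of both genes kept their calls without either set, and the interactions with sex of diet in untreated animals and of treatment kept theirs without the first. The other interactions were not repeated without them. Sequencing identifiers fell into a lower range of 544 libraries and an upper range of 159, a split that was kept as a term in every fit. Markers of skeletal muscle fibres were the most abundant of the marker lists, and in untreated animals on 10% fat their summed median was 132826 CPM.

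Rab15 was higher on 44% fat in both sexes and in both treatment groups. In untreated animals on 10% fat it ranged from 0.521 CPM to 8.46 CPM with a median of 2.12 CPM (n = 234), and on 44% fat from 0.623 CPM to 16.2 CPM with a median of 4.25 CPM (n = 235). The 2 ranges overlapped. In whole muscle, a difference in RNA per cell and a difference in the number of cells of a type cannot be told apart. The fitted diet difference in untreated animals, which chose the gene, was 1.04 ± 0.04 (SE) on the log2 scale, a 2.06-fold rise. In females the median went from 2.72 CPM on 10% fat to 5.37 CPM on 44% fat, and in males from 1.72 CPM to 3.66 CPM. The median of males on 44% fat thus lay above that of females on 10% fat, and the ranges of all 4 groups overlapped.

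BC048679 spanned a far wider range on each diet. In untreated animals on 10% fat it ranged from 0 CPM to 10.1 CPM with a median of 0.818 CPM, and on 44% fat from 0.108 CPM to 21.4 CPM with a median of 2.51 CPM. Its values formed separate low and high sets of animals on either diet, which are described by strain below. The fitted difference in untreated animals was 1.21 ± 0.05 (SE) on the log2 scale, a 2.31-fold rise. It was 1.32 with a trended dispersion. The difference of means on the deposited variance-stabilised values, which are on another scale, was 0.523, and why it was smaller was not tested. The female median went from 1.15 CPM to 2.87 CPM and the male median from 0.546 CPM to 1.99 CPM. In untreated animals 20.3% of all genes tested differed with diet in the same fit, and 10.1% were higher on 44% fat, but nothing is read from these shares for genes that were chosen by this contrast. In untreated animals 9 of 14 adipocyte markers passed as higher on 44% fat and 2 as lower, with a median log2 difference of 0.22, and their summed level was 722 to 3278 CPM on 10% fat and 770 to 3651 CPM on 44% fat. With that summed level as a covariate, both genes stayed higher on 44% fat in untreated animals. The part of these markers in the diet difference of either gene was not tested beyond such fits.

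**Figure D1:**
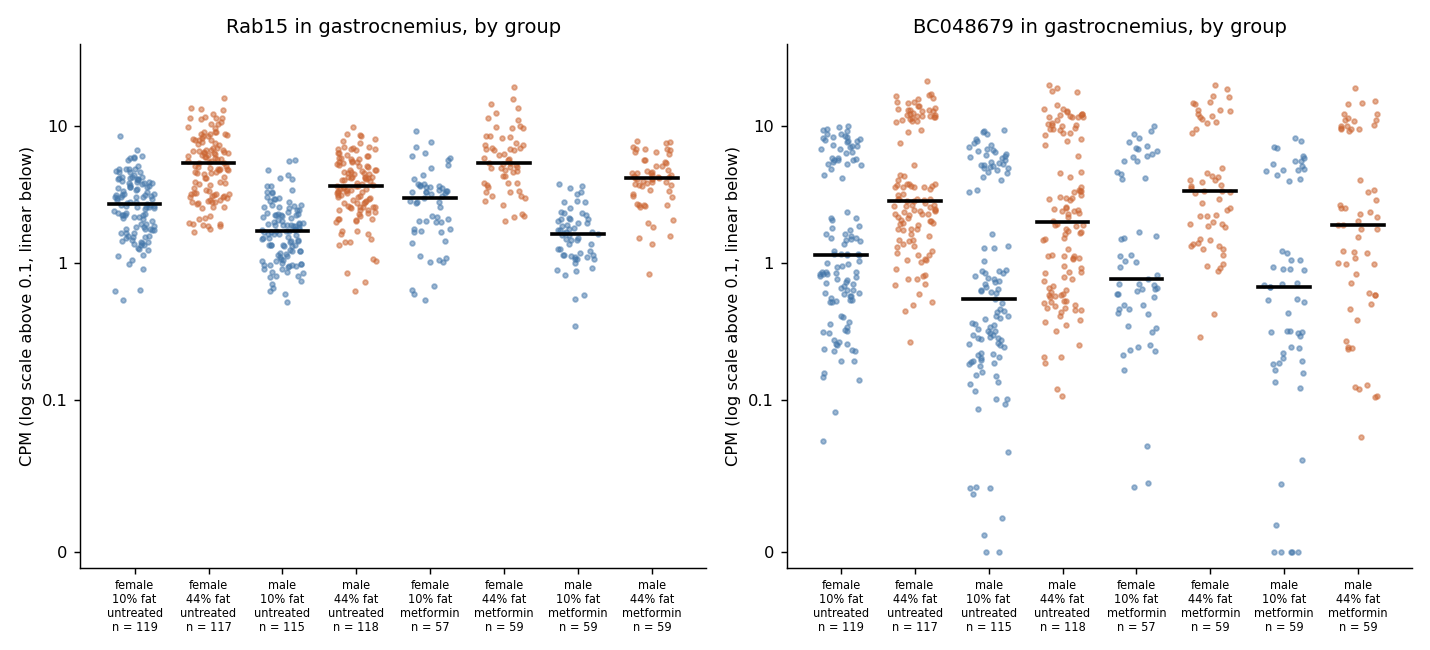
Levels of Rab15 (left) and BC048679 (right) in CPM in each of the 8 sex, diet and treatment groups, on an axis that is logarithmic above 0.1 and linear below. Each point is 1 library and each bar is the group median. In both genes the median on 44% fat lies above that on 10% fat in each sex and treatment, and BC048679 shows a separate upper set of animals in every group.

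The ratio of strain means did not reach 2-fold in all strains, and whether it differed between strains was not tested in untreated animals. In untreated animals the mean of Rab15 was higher on 44% fat in 20 of 20 strains, with a ratio of means from 1.08 to 2.87 and a median of 2.10, and it reached 2-fold in 11 strains. The ratio for BC048679 was also above 1 in 20 of 20 strains, from 1.16 to 4.69 with a median of 2.37, and reached 2-fold in 15 strains. The lowest ratio of both genes came from the same strain, (CC024/GeniUncJ x CC002/UncJ)F1. There Rab15 was 2.02 ± 0.833 CPM (SD, n = 12) on 10% fat and 2.18 ± 0.836 CPM (SD, n = 12) on 44% fat, and BC048679 was 0.587 ± 0.435 CPM and 0.681 ± 0.459 CPM. These differences of 0.164 CPM and 0.094 CPM were smaller than the SD among animals on either diet. The highest ratio of Rab15 came from (CC009/UncJ x CC013/GeniUncJ)F1, where it was 1.30 ± 0.540 CPM (SD, n = 4) on 10% fat and 3.73 ± 2.31 CPM (SD, n = 6) on 44% fat. The highest ratio of BC048679 came from (CC043/GeniUncJ x CC011/UncJ)F1, with 0.609 ± 0.385 CPM (SD, n = 12) and 2.86 ± 1.05 CPM (SD, n = 12).

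In all, 85 genes were higher on 44% fat in 20 of 20 strains of untreated animals by mean log2 CPM, which is 0.519% of the 16384 tested. Of these, 5 had a fitted log2 difference of 1 or more. Just inside that limit were Nnat at 1.18 and Rab15 at 1.04, and just outside were Kcnj14, a potassium channel subunit, at 0.95 and Fabp3, the fatty acid-binding protein of heart and muscle, at 0.87. The others inside were Chrna2, a nicotinic receptor subunit, at 1.26, BC048679 at 1.21 and Lep, which encodes leptin, at 1.19. The smallest strain difference of Rab15 was 0.11 on the log2 scale and that of BC048679 was 0.26.

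The diet difference was then tested in the metformin-treated animals, which are other animals than those of the untreated fit in which the genes had been listed. The rule itself names no treatment group, so it cannot be said that no treated value was known when the genes were chosen. Rab15 in treated animals on 10% fat ranged from 0.348 CPM to 9.20 CPM with a median of 2.00 CPM, and on 44% fat from 0.837 CPM to 19.5 CPM with a median of 4.67 CPM. BC048679 ranged from 0 CPM to 10.1 CPM with a median of 0.701 CPM on 10% fat, and from 0.0761 CPM to 20.0 CPM with a median of 2.53 CPM on 44% fat. Both groups overlapped for each gene over all strains. Rab15 was higher on 44% fat by 1.17 ± 0.06 (SE) on the log2 scale, a 2.26-fold rise, with an adjusted p of 7.02e-47 in edgeR's quasi-likelihood test with Benjamini-Hochberg adjustment. BC048679 was higher by 1.35 ± 0.08 (SE), a 2.56-fold rise, with an adjusted p of 2.41e-41 in the same edgeR test. In that fit 12.1% of the 16418 genes tested differed with diet and 5.27% were higher on 44% fat.

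The rise in treated animals held within both sequencing identifier ranges. In the lower range, with 144 libraries, the log2 difference was 1.18 ± 0.08 for Rab15 and 1.44 ± 0.11 for BC048679 (SE). In the upper range, with 90 libraries, it was 1.18 ± 0.10 and 1.27 ± 0.11. The mean log2 CPM of each gene was higher on 44% fat in 20 of 20 treated strains, a pattern found in 0.256% of the genes tested.

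In treated animals the ratio of means reached 2-fold in 16 strains for Rab15 and in 15 strains for BC048679. Rab15 ratios ran from 1.78 in (CC019/TauUncJ x CC042/GeniUncJ)F1 to 3.26 in (CC009/UncJ x CC013/GeniUncJ)F1, and their median was 2.23. The strain with almost no rise in untreated animals, (CC024/GeniUncJ x CC002/UncJ)F1, had Rab15 at 1.21 ± 0.592 CPM on 10% fat and 2.50 ± 0.947 CPM on 44% fat when treated (SD, n = 6 each), a ratio of 2.06. BC048679 in the treated animals of that strain was 0.437 ± 0.564 CPM on 10% fat and 0.469 ± 0.383 CPM on 44% fat, a ratio of 1.07 and again the lowest of the 20 strains. The highest BC048679 ratio, 10.8 in (CC002/UncJ x CC043/GeniUncJ)F1, rested on a mean of 0.0832 ± 0.101 CPM (SD, n = 6) on 10% fat, where some libraries were at 0, against 0.8997 ± 0.436 CPM (SD, n = 6) on 44% fat.

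A test of whether the diet difference varied between strains in treated animals passed for BC048679 and not for Rab15, and the gap between the genes was not itself tested. For BC048679 the diet by strain interaction had an F statistic of 3.38 over 19 coefficients and an adjusted p of 6.08e-04 by edgeR, where 9.20% of genes passed. For Rab15 the F statistic was 0.646 with an adjusted p of 0.907 by edgeR, in the same libraries, with 3 to 7 animals per strain and diet. The diet difference did not differ between the sexes by test for either gene. The additional rise in males over females in untreated animals was 0.13 on the log2 scale for Rab15 (95% interval -0.05 to 0.30, adjusted p = 0.718 by edgeR), and 0.04 for BC048679 (95% interval -0.16 to 0.24, adjusted p = 0.957 by edgeR), where 0.568% of genes passed. In treated animals it was 0.23 for Rab15 (95% interval -0.01 to 0.46, adjusted p = 0.519 by edgeR) and -0.22 for BC048679 (95% interval -0.52 to 0.07, adjusted p = 0.657 by edgeR), where 0.962% of genes passed. The untreated values of both genes changed sign in the upper identifier range, to -0.14 and -0.33, without passing the test.

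**Figure D2:**
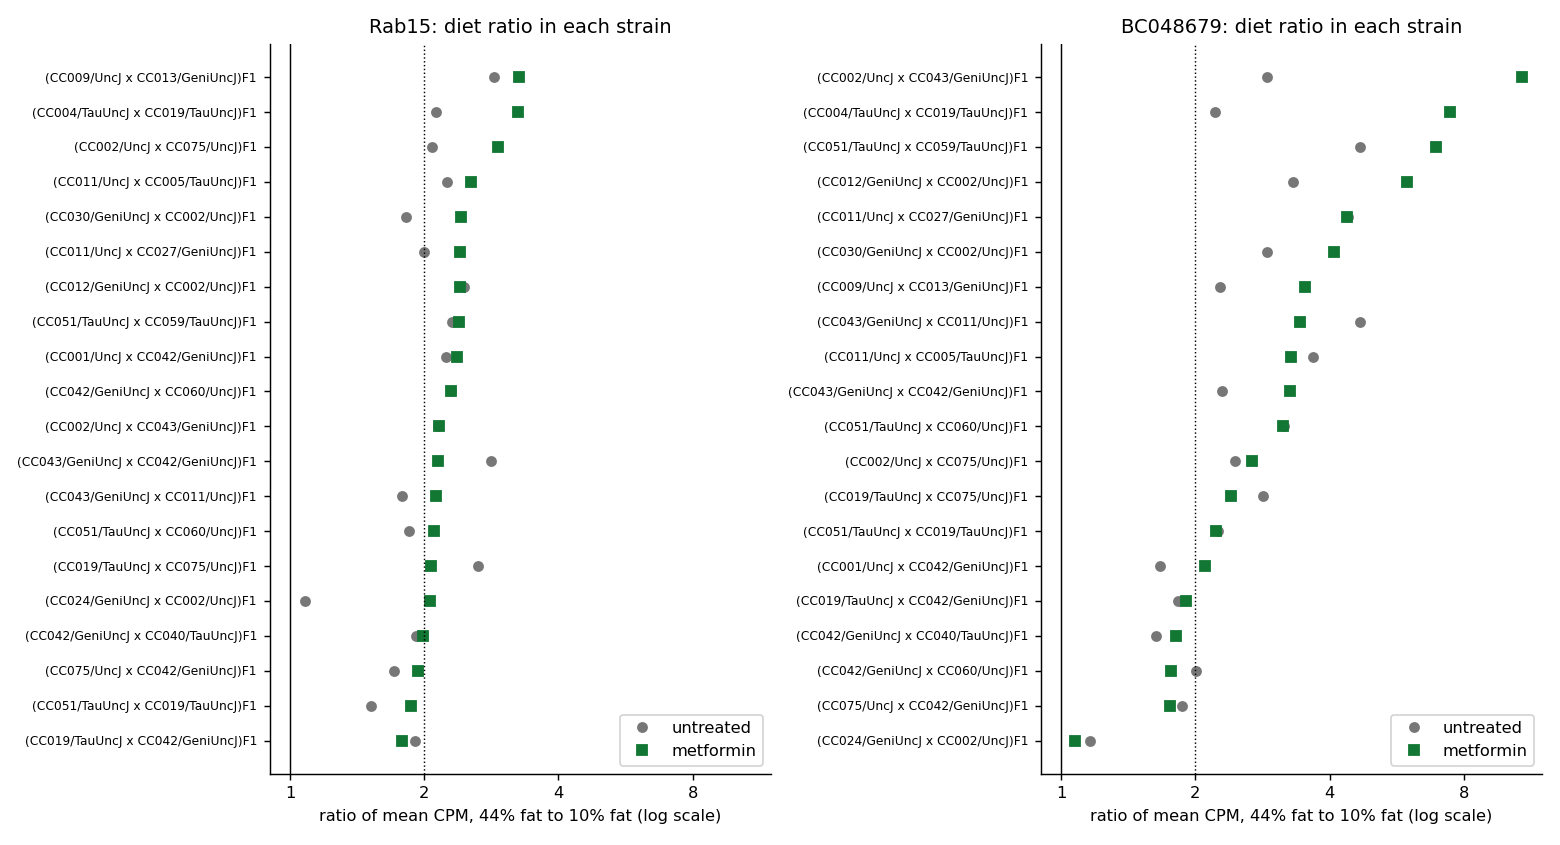
Ratio of mean CPM on 44% fat to that on 10% fat in each of the 20 strains, for Rab15 (left) and BC048679 (right), on a logarithmic axis. Grey circles are untreated animals, green squares metformin-treated animals, and strains are ordered by the treated ratio. All ratios lie to the right of the solid line at 1, and those left of the dotted line at 2 include untreated (CC024/GeniUncJ x CC002/UncJ)F1, at 1.08 and 1.16.

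Of the factors fitted, strain accounted for the largest share of variance in both genes, narrowly ahead of diet in Rab15 and far ahead in BC048679. Of the variance of log2 CPM in untreated animals, strain accounted for 33.2% in Rab15 and 71.8% in BC048679, diet for 29.5% and 12.2%, sex for 8.56% and 3.15%, and the identifier range for 0.0967% and 0.0163%. The strain test in untreated animals gave an F statistic of 32.1 for Rab15 with an adjusted p of 1.65e-70, and of 229 for BC048679 with an adjusted p of 7.39e-215, both by edgeR over 19 coefficients. Strain differences passed in 95.4% of genes, so the call itself sets neither gene apart.

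Rab15 levels formed a gradient over the strains. After adjustment for sex, diet and range, strain means in untreated animals ran over 1.76 on the log2 scale, from (CC011/UncJ x CC005/TauUncJ)F1 to (CC019/TauUncJ x CC042/GeniUncJ)F1. In the lowest strain Rab15 was 1.02 ± 0.382 CPM (SD, n = 12) on 10% fat and 2.30 ± 0.499 CPM (SD, n = 14) on 44% fat. In the highest it was 4.30 ± 1.92 CPM and 8.18 ± 3.11 CPM (SD, n = 12 each). No step between neighbours in this order exceeded the residual SD of 0.50 among animals of a strain, the widest being 0.39 between (CC024/GeniUncJ x CC002/UncJ)F1 and (CC075/UncJ x CC042/GeniUncJ)F1. The 3 strains with a CC051/TauUncJ parent had means of 2.92 to 3.59 CPM on 10% fat, and those without it 1.02 to 4.30 CPM. The 3 with a CC011/UncJ parent had 1.02 to 1.54 CPM, and those without it 1.19 to 4.30 CPM. Neither parent thus set its strains apart, and both groupings were chosen after the values were seen.

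BC048679 levels fell into 2 sets. The adjusted strain means ran over 5.02 on the log2 scale, and 1.96 of that was a single step between (CC009/UncJ x CC013/GeniUncJ)F1 and (CC075/UncJ x CC042/GeniUncJ)F1. The step exceeded the residual SD of 0.71, and only 1 of the other 18 steps did, the lowest one, at 0.74 above (CC012/GeniUncJ x CC002/UncJ)F1. All 6 strains above the large step have CC042/GeniUncJ as a parent, and none of the 14 strains below it does. The split by this parent was made after the values were seen and is a description.

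On 10% fat the untreated strains with that parent had means of 6.08 to 7.63 CPM, and the other strains 0.168 to 1.29 CPM. Their animals did not overlap: 72 animals with the parent ranged from 3.30 CPM to 10.1 CPM with a median of 6.41 CPM, and 162 without it from 0 CPM to 2.35 CPM with a median of 0.489 CPM. On 44% fat 71 animals with the parent ranged from 6.07 CPM to 21.4 CPM with a median of 12.0 CPM, and 164 without it from 0.108 CPM to 5.26 CPM with a median of 1.74 CPM. The ranges were also apart on each diet among treated animals, with a lowest value of 3.97 CPM against a highest of 1.68 CPM on 10% fat, and 8.99 CPM against 4.99 CPM on 44% fat. On 10% fat the mean over the 6 strains was 10.3 times that over the 14. Strain means of the 6 all lay above those of the other 14 in 91 genes, 0.555% of those tested. The same parent did not separate Rab15, whose strain means on 10% fat were 2.21 to 4.30 CPM with it and 1.02 to 3.59 CPM without it.

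The diet ratios of BC048679 overlapped between the 2 sets and the added amounts did not, and neither was tested. In untreated animals the diet ratio was 1.63 to 2.29 with the CC042/GeniUncJ parent, with a median of 1.85, and 1.16 to 4.69 without it, with a median of 2.90. The added amount was 4.65 to 8.08 CPM with the parent and 0.094 to 2.35 CPM without it. In treated animals the ratio was 1.76 to 3.27 with the parent and 1.07 to 10.8 without it, and the added amount was 4.66 to 11.2 CPM and 0.0323 to 3.59 CPM.

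**Figure D3:**
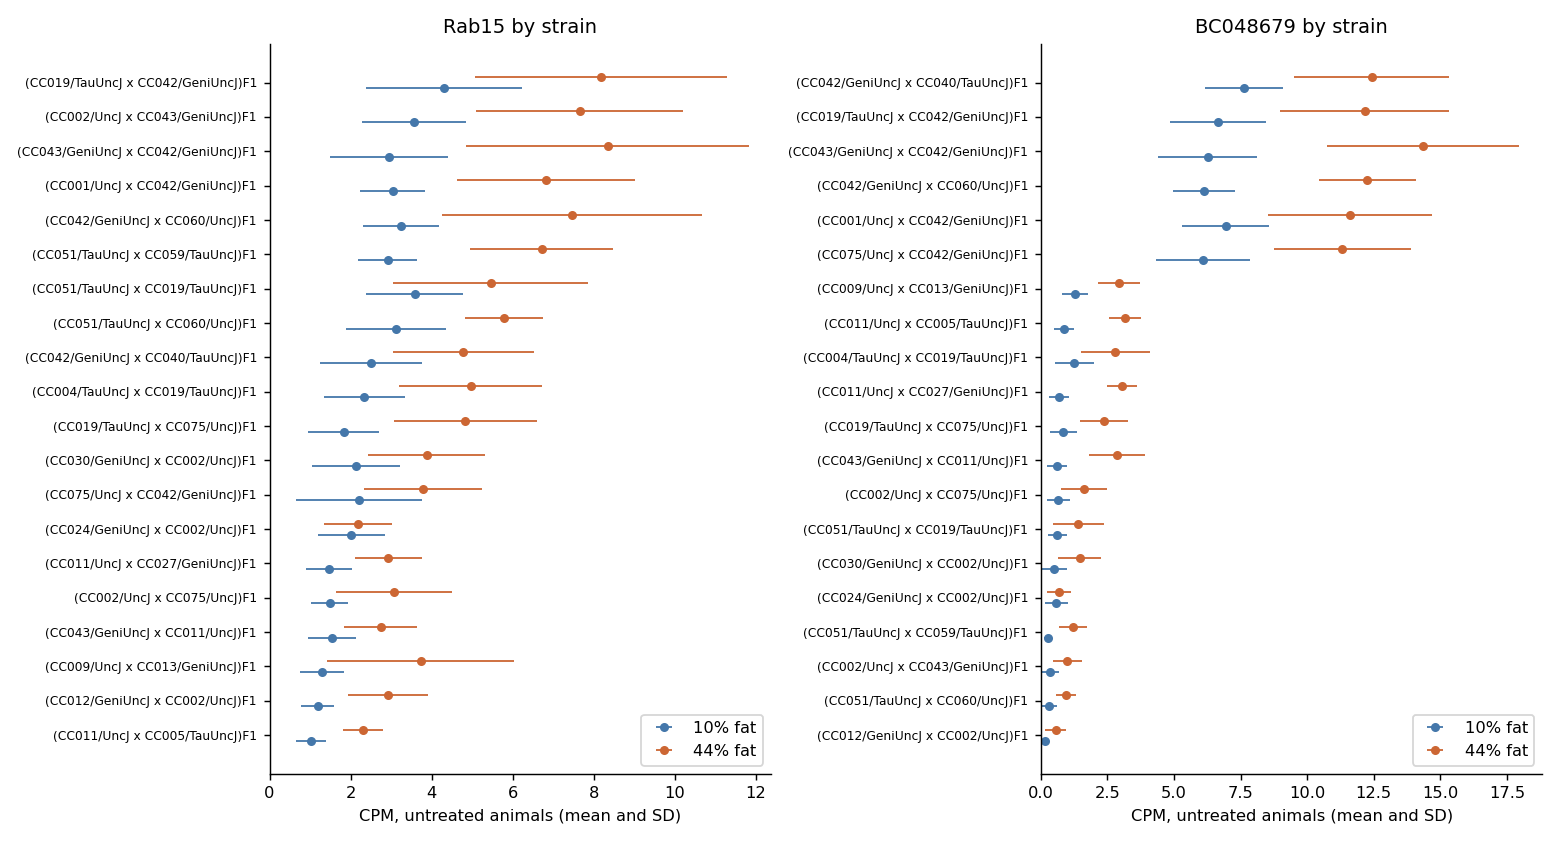
Mean level of Rab15 (left) and BC048679 (right) in CPM in untreated animals of each strain, on 10% fat (blue) and 44% fat (orange), with bars of 1 SD that stop at 0. Strains run from the lowest adjusted level at the bottom to the highest at the top. Rab15 rises in small steps, whereas BC048679 steps up at the 6 strains with a CC042/GeniUncJ parent, from means of at most 1.29 to at least 6.08 on 10% fat.

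Genes near BC048679 were compared to see whether they shared its strain pattern. Of the 11 tested genes that start within 250 kb of it, 2 had strain means on 10% fat that were all higher with the CC042/GeniUncJ parent, both with clone names and low levels. Over all genes tested, 0.555% had this pattern. RP24-225H21.2 had 0.301 to 0.496 CPM with the parent and 0.114 to 0.229 CPM without it, and RP24-225H21.4 had 0.234 to 0.565 CPM and 0.0625 to 0.201 CPM. In 1 gene, Gm37829, all means with the parent were lower, at 56.4 to 66.3 CPM against 66.6 to 87.8 CPM, and 0.317% of all genes tested had this pattern. The nearest gene downstream, Ap3b2, which encodes a neuronal adaptor subunit, had 0.178 to 0.269 CPM with the parent and 0.148 to 0.285 CPM without it. Homer2, a scaffold protein, had 41.1 to 50.98 CPM and 30.1 to 50.1 CPM, and Cpeb1, an RNA-binding protein, had 26.96 to 45.98 CPM and 24.5 to 39.3 CPM. Fsd2 had 353 to 402 CPM and 399 to 504 CPM, and Whamm had 5.19 to 6.88 CPM and 6.38 to 8.50 CPM. A gene with a clone name between Cpeb1 and Ap3b2 had 3.04 to 4.42 CPM and 3.21 to 6.54 CPM, and 2900076A07Rik had 20.7 to 23.1 CPM and 22.9 to 29.2 CPM. Strain means overlapped between the sets in the other 8 of the 11 genes.

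The diet difference of the 2 genes was not seen at the same size in their neighbours. Log2 diet differences in treated animals ran from -0.10 to 0.22 over the 11 genes near BC048679, 3 of which passed edgeR's test, all as lower on 44% fat, where 12.1% of all genes passed. Near Rab15, the 4 tested genes Sptb, Churc1, Fntb and Max had differences of 0.04, 0.04, 0.03 and 0.003, and 1 of them passed. No source used here states the strand setting of the authors' counting, so reads of genes on opposite strands are told apart only where their exons do not overlap, as holds for Rab15 and Fntb.

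Both genes were higher in females. In untreated animals Rab15 ranged from 0.538 CPM to 16.2 CPM with a median of 3.58 CPM in 236 females, and from 0.521 CPM to 9.93 CPM with a median of 2.47 CPM in 233 males. BC048679 ranged from 0.0732 CPM to 21.4 CPM with a median of 2.09 CPM in females, and from 0 CPM to 20.0 CPM with a median of 1.09 CPM in males. The male minus female difference of Rab15 was -0.55 ± 0.04 (SE) on the log2 scale, so females were 1.46-fold higher, with an adjusted p of 2.18e-29 by edgeR. For BC048679 it was -0.46 ± 0.05 (SE), so females were 1.38-fold higher, with an adjusted p of 6.38e-17 by edgeR. In the same test 67.1% of genes differed between the sexes, and 6062 of 16384 were higher in females. In treated animals the differences were -0.62 ± 0.06 and -0.53 ± 0.07 (SE), with adjusted p of 5.04e-20 and 8.87e-11 by edgeR, where 53.2% of genes passed.

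The female excess was present in most strains. The mean log2 level of Rab15 was higher in untreated females of 19 of 20 strains, with (CC011/UncJ x CC027/GeniUncJ)F1 at -0.16 the exception, and that of BC048679 was higher in 18 of 20. Within the lower and the upper identifier range the male minus female difference was -0.50 and -0.84 for Rab15, and -0.47 and -0.40 for BC048679. Slow-fibre markers moved with sex too. All 7 of them passed as higher in females, their median male minus female difference was -0.66, and their summed level was 1183 to 4249 CPM with a median of 2119 CPM in females and 488 to 2549 CPM with a median of 1368 CPM in males. With that summed level as a covariate, an alternative chosen after seeing the data, the sex difference was -0.32 for Rab15 (adjusted p = 2.96e-05 by edgeR) and -0.21 for BC048679 (adjusted p = 0.0200 by edgeR). The summed adipocyte marker level was also higher in females, with a median of 1988 CPM against 1228 CPM, and as a covariate left the differences at -0.52 and -0.50. What part fibre type or fat has in the sex difference was not tested beyond these fits.

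Metformin and age together were not detectably related to either gene. Rab15 in all untreated animals ranged from 0.521 CPM to 16.2 CPM with a median of 3.05 CPM (n = 469), and in all treated animals from 0.348 CPM to 19.5 CPM with a median of 3.34 CPM (n = 234). BC048679 had medians of 1.67 CPM and 1.51 CPM, with ranges of 0 to 21.4 CPM and 0 to 20.0 CPM. The treated minus untreated difference was 0.05 for Rab15 on the log2 scale (95% interval -0.03 to 0.13, adjusted p = 0.388 by edgeR) and -0.02 for BC048679 (95% interval -0.11 to 0.07, adjusted p = 0.813 by edgeR). The sign of the latter turned with limma voom, to 0.023. By the same test 19.4% of 17740 genes passed. Both intervals lie far below the diet differences. By strain the difference was positive in 13 of 20 strains for Rab15, from -0.40 to 0.48, and in 8 of 20 for BC048679, from -0.93 to 0.38.

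Neither gene passed a test that the treatment difference depends on sex or on strain. The treatment by sex interaction was -0.07 for Rab15 (95% interval -0.21 to 0.08, adjusted p = 0.669 by edgeR) and -0.06 for BC048679 (95% interval -0.23 to 0.12, adjusted p = 0.764 by edgeR), where 3.12% of genes passed, and the sign of each turned to positive in the upper identifier range. The treatment by strain interaction had an F statistic of 1.68 for Rab15 (adjusted p = 0.158 by edgeR) and of 0.814 for BC048679 (adjusted p = 0.804 by edgeR), where 11.6% passed.

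Genes were ranked by how closely they followed each member in single animals, beyond strain, sex, diet, treatment and range. The measure was Pearson's r of residual log2 CPM over the 703 libraries, given as a description, since libraries share batches, depth and tissue sampling. These terms were fitted without interactions, so diet differences particular to a strain or sex stay in the residuals. Among 10095 genes with a regular symbol and a log2 CPM averaging 1 or more, the 95th percentile of r with Rab15 was 0.196. The most like was Actn2, the alpha-actinin of the Z-disc, at 0.608, followed by the small heat shock protein Hspb7 at 0.604. Ankrd2, a stretch-responsive ankyrin repeat protein, had 0.574, the LIM proteins Fhl1 and Csrp3 had 0.549 and 0.517, and Myom3, a protein of the M-band, had 0.512. The chaperones Dnaja4, Hspb6 and Cryab had 0.541, 0.537 and 0.509. Fabp3 had 0.555. The least like were Prkag3, the AMPK gamma subunit of fast glycolytic fibres, at -0.384, Tmem233 at -0.378 and Pvalb, the calcium buffer of fast fibres, at -0.349.

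The ranking for BC048679 was led by other genes, apart from Fabp3. The 95th percentile of r over the same 10095 genes was 0.128. The most like was Acadl, the long-chain acyl-CoA dehydrogenase, at 0.491, followed by Fabp3 at 0.466 and Decr1, the dienoyl-CoA reductase, at 0.466. Hadha, a subunit of the trifunctional protein, had 0.447, Ech1, an enoyl-CoA isomerase, had 0.446, and Etfdh, which passes electrons from acyl-CoA dehydrogenases to ubiquinone, had 0.434. Acadvl, Acaa2, Hsdl2 and Retsat had 0.430, 0.414, 0.410 and 0.403. The least like were Ttc3 at -0.264, Sema3a at -0.247 and Gprc5b at -0.213.

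**Figure D4:**
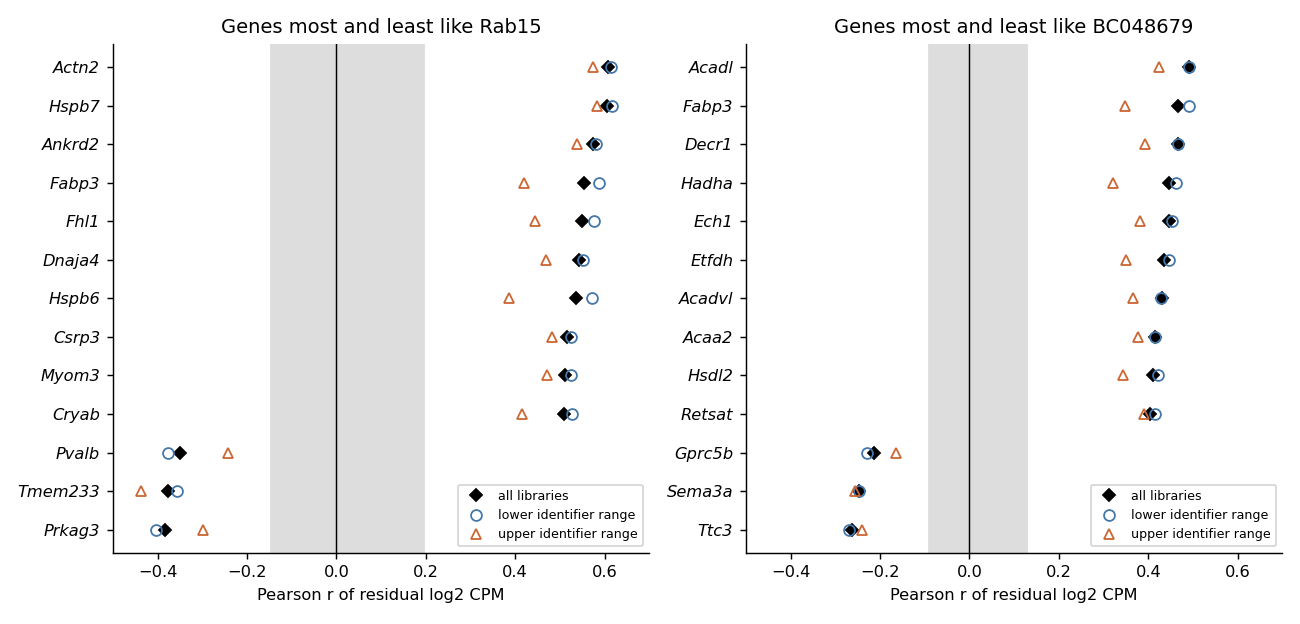
Pearson r of residual log2 CPM between Rab15 (left) or BC048679 (right) and the 10 genes most like and 3 genes least like it, after strain, sex, diet, treatment and identifier range were fitted. Diamonds are all libraries, circles the lower and triangles the upper identifier range, and the grey band runs from the 5th to the 95th percentile of all genes. Every diamond lies outside the band, and the triangles keep the sign of the diamonds.

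The 2 members were themselves weakly alike, with r = 0.262 (Spearman's rho = 0.227) over the 703 libraries and 0.263 without the 2 libraries farthest in Rab15. The value was 0.320 in untreated and 0.090 in treated animals, and 0.322 in the lower and 0.1002 in the upper range. Fabp3 was the one gene among the 10 most like for both. The next 4 lists, drawn up after these correlations were seen, lend them no independent weight. All 18 genes of mitochondrial fatty acid oxidation had a positive r with BC048679, from 0.238 to 0.491 with a median of 0.369, and all 18 had one with Rab15, with a median of 0.288. Of the 18, all exceeded the 95th percentile of all genes for BC048679 and 15 did for Rab15. Of 17 Z-disc genes measured, 15 had a positive r with Rab15, with a median of 0.344, and the median with BC048679 was 0.092, and 12 and 7 of the 17 exceeded the respective 95th percentiles. The 10 skeletal muscle fibre markers had a median r of -0.166 with Rab15, 2 of them positive, and of 0.031 with BC048679. The 7 small heat shock genes had medians of 0.239 and 0.054, and 12 PPAR-responsive genes had medians of 0.353 and 0.238. All 7 slow-fibre markers had a positive r with both genes, with medians of 0.214 and 0.152. With the slow-fibre level as a covariate, the 10 genes most like Rab15 had r of 0.479 to 0.584, and 9 of them were still among its 10 most like.

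The genes most like the members in single animals were themselves higher on 44% fat in treated animals, by smaller amounts. Fabp3 was higher by 0.99 ± 0.05 (SE) on the log2 scale, Ankrd2 by 0.64 ± 0.10, Csrp3 by 0.56 ± 0.11, Acadl by 0.48 ± 0.02, Ech1 by 0.46 ± 0.02 and Actn2 by 0.23 ± 0.03, all past edgeR's test. The least like Prkag3 and Pvalb were lower, by -0.18 ± 0.05 and -0.10 ± 0.03. All 18 fatty acid oxidation genes passed as higher on 44% fat, with a median of 0.27 against -0.01 over all genes. Of 18 Z-disc genes, 12 passed as higher and 1 as lower, with a median of 0.13. Over all genes 12.1% passed in this test, 5.27% as higher. Both lists were drawn up after correlations in these same animals were seen, so their counts lend no independent weight.

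Across strains the genes most like the members were others. Over the 20 strain means, adjusted for sex, diet, treatment and range, the most like Rab15 were Ptgr2 at r = 0.852, Pcnxl4 at 0.847 and Canx, the endoplasmic reticulum chaperone calnexin, at 0.833. Ptgr2 starts at chr12:84285232 and Pcnxl4 at chr12:72536357, on the same chromosome as Rab15, and Canx is on chromosome 11. The most like BC048679 were Ssrp1, a histone chaperone subunit, at 0.934, Cdc26, a subunit of the anaphase-promoting complex, at 0.918 and Cyb5rl at 0.914, on chromosomes 2, 4 and 4. The 95th percentile over all genes was 0.519 for Rab15 and 0.631 for BC048679, and these values rest on 20 strain means that share parents.

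Other Rab genes did not share the diet difference of Rab15. Of 47 other Rab genes tested in treated animals, 1 passed as higher on 44% fat and 3 as lower, with a median log2 difference of -0.02 against -0.01 over all genes, of which 12.1% passed. The share called in the Rab list is near that background, as for the partner list below. Rab11b, a GTPase of recycling endosomes, was higher by 0.09 ± 0.02 (SE, adjusted p = 3.80e-05 by edgeR). Rab27b, which acts in secretion, was lower by -0.23 ± 0.07 (adjusted p = 0.0146 by edgeR), Rab40b by -0.14 ± 0.03 and Rab4b, another endosomal member, by -0.11 ± 0.04. Of 15 genes for partners of Rab15 and the general Rab cycle, which include the effector Rep15, none passed as higher and 2 as lower, Rabep2 at -0.10 ± 0.04 and Rabif at -0.07 ± 0.02. Of 15 genes of GLUT4 vesicle traffic, 2 passed as higher, Tbc1d1, a Rab GTPase-activating protein, by 0.24 ± 0.05 and the motor protein Myo1c by 0.09 ± 0.02. Slc2a4, which encodes GLUT4 itself, was lower by -0.12 ± 0.02, Myo5a by -0.11 ± 0.04, and 5 genes of the list passed as lower in all. With sex, 12 of 46 other Rab genes were higher in untreated females and 23 in males, among them Rab12 and Rab20, with differences of 0.60 and 0.48, where 67.1% of all genes passed. With treatment, 3 of 50 Rab genes passed as higher, led by Rab3b at 0.35 ± 0.09, and 6 as lower, where 19.4% of all genes passed. The treatment count does not set the Rab genes apart from that background. By sex, more of the Rab genes passed as higher in males than in females. Over all 16384 genes tested, 4936 were higher in males and 6062 in females. Whether the Rab list differs from all genes in this was not tested.

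Markers of other cell types were checked beside the diet difference in treated animals, where 12.1% of all genes passed and 5.27% as higher on 44% fat. Of 14 adipocyte markers tested in treated animals, 3 passed as higher on 44% fat and 3 as lower, with a median of 0.001, and their summed level was 834 to 3716 CPM with a median of 1325 CPM on 10% fat and 814 to 2948 CPM with a median of 1513 CPM on 44% fat. With that level as a covariate the diet difference was 1.14 for Rab15 and 1.37 for BC048679. Of 4 neuronal and neuroendocrine markers tested 1 passed, Nefh, as lower, and the summed level of the 7 in the table was 2.72 to 13.4 CPM on 10% fat and 2.91 to 11.8 CPM on 44% fat. None of 11 macrophage markers, 8 Schwann cell markers, 5 satellite cell markers or 8 liver markers passed. Of 7 slow-fibre markers, 2 passed as higher with a median of 0.07, of 10 skeletal muscle fibre markers, 2 as higher and 1 as lower, and of 10 denervation-responsive genes, 1 in each direction. Endothelial markers had 3 of 8 higher, smooth muscle and pericyte markers 1 of 7 higher, fibroblast and progenitor markers 3 of 7 lower, and brown adipocyte markers 1 higher and 1 lower of 6. No listed marker that was measured was at 0 in most libraries. The authors had filtered out transcripts with few or no reads across samples, so such markers would mostly be missing already. Of the listed markers, 7 of 12 neuronal and neuroendocrine, 14 of 15 adipocyte and 8 of 9 liver markers were measured. Over single animals, the residual r with the summed adipocyte level was 0.066 for Rab15 and -0.045 for BC048679. Rab15 had r of 0.299 with the summed denervation genes, 0.276 with the summed neuronal and neuroendocrine markers, 0.227 with the slow-fibre sum, 0.192 with the satellite cell sum and -0.178 with the skeletal muscle fibre sum. All 9 denervation genes measured had a positive r with Rab15, and 5 exceeded the 95th percentile. BC048679 had r of 0.210 with the brown adipocyte sum, 0.136 with the slow-fibre sum, 0.014 with the neuronal sum and -0.006 with the denervation sum. The 4 brown adipocyte genes ranked singly all had a positive r with BC048679, with a median of 0.065. Only 1 of them, Cpt1b at 0.302, exceeded the 95th percentile. The part of these cell types or states in either gene was not tested.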

How the data were processed

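Gastrocnemius RNA from 703 mice was sequenced by the authors, who aligned reads to founder transcriptomes with EMASE and GBRS on GRCm38. They deposited estimated counts per gene, here whole numbers, and a log2-like table of variance-stabilised values from DESeq2, used only as an alternative scale. No source used here states the strand handling. Groups came from the labels.

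Estimated counts were scaled by TMM and tested with edgeR 4.0.16 (R 4.3.3), glmQLFit with filterByExpr and Benjamini-Hochberg adjustment over all genes tested, at 0.05. Terms were strain, sex, diet, treatment where both were present, and sequencing identifier range. CPM use TMM library sizes, and log2 CPM a prior count of 2. Untreated and treated animals were fitted apart, except for treatment. Total counts per library, with a median of 47876086, bound the precision, and the members had medians of 155 and 76 counts. P-values measure the spread between libraries, each labelled as 1 sample.

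The members and lists were chosen with earlier results of these data known. Named genes were the members, the 10 most and 3 least like each by residual r (mean log2 CPM of at least 1), the 3 most like by strain means, tested genes starting within 250 kb (1 is not reported here), up to 4 called genes of a list with the largest changes, and those just inside and outside a log2 difference of 1. The lists of fatty acid oxidation, PPAR-responsive, Z-disc and small heat shock genes, and the split by the CC042/GeniUncJ parent, were added after values were seen. Among 1404 pairs of libraries of one strain, sex, diet and treatment, at most 0.729% of genes had equal counts, so none was counted as a duplicate. Alternatives were other size factors, filters, tools (limma voom 3.58.1, DESeq2 1.42.0), dispersions, library sets, covariates and leaving out each strain.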

Additional observations from a re-analysis of the deposited data

Results flagged for a closer look

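In 5 of 82 sets of 4 to 10 animals of one strain, diet and treatment, 1 library lay farther from the rest than Dixon's 95% limit allows, and chance gives about 1 in 20. For Rab15 these were a value of 14.6 CPM in treated (CC001/UncJ x CC042/GeniUncJ)F1 on 44% fat, with the next at 6.72 CPM and the lowest at 3.86 CPM, and a value of 2.31 CPM in treated (CC051/TauUncJ x CC019/TauUncJ)F1 on 10% fat, with the others at 3.21 to 3.58 CPM. For BC048679, all on 10% fat with metformin, they were 1.57 CPM in (CC011/UncJ x CC005/TauUncJ)F1 against 0.564 to 0.935 CPM, 1.54 CPM in (CC024/GeniUncJ x CC002/UncJ)F1 against 0 to 0.495 CPM, and 6.91 CPM in (CC043/GeniUncJ x CC042/GeniUncJ)F1 against 4.12 to 4.83 CPM.

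The diet difference of BC048679 differed between strains in treated animals, with an F statistic of 3.38 for the interaction in edgeR's quasi-likelihood test.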

How the results depend on the processing

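No paired analysis was possible because every label carries the same replicate number, so no numbers match samples across groups. The diet difference in treated animals passed for both genes in all 13 alternatives, at 1.13 to 1.19 for Rab15 and 1.27 to 1.53 for BC048679, and so did the sex difference, at -0.84 to -0.32 and -0.67 to -0.21. Neither gene passed for treatment in any of 13 alternatives, where limma voom turned BC048679 to 0.023. On the deposited transformed values the untreated diet difference of Rab15 was 0.51. In linear fits without each strain in turn, the diet difference was 0.99 to 1.08 untreated and 1.16 to 1.21 treated for Rab15, and 1.34 to 1.45 and 1.43 to 1.57 for BC048679. The sex difference was -0.59 to -0.53 and -0.75 to -0.64, and the treatment difference 0.02 to 0.07 and -0.13 to -0.06. With all strains kept, these linear fits gave BC048679 1.39 for untreated diet, 1.52 for treated diet, -0.71 for sex and -0.11 for treatment. The gap to the edgeR values was thus present before any strain was left out. The diet by sex difference in untreated animals turned to -0.14 for Rab15 and -0.33 for BC048679 in the upper identifier range. The treatment by sex difference of Rab15 turned to 0.00578 with the lower range and 0.035 with the upper, and that of BC048679 to 0.087 with the upper. None of these 6 passed, and the cause was not tested.

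Counts of genes called fell with fewer libraries or genes, and the interaction counts given below also fell with limma voom. In the upper range alone they went from 3320 to 365 for untreated diet, 1979 to 836 for treated diet, 10998 to 4329 for sex, 15626 to 9149 for strain and 3437 to 1 for treatment, where 1160 genes had an unadjusted p under 0.05. There diet by sex went from 93 to 0 in edgeR, with 885 genes under an unadjusted 0.05, and treatment by sex from 554 to 1. In the lower range treated diet had 615, diet by sex 32 and treatment by sex 319. Among genes with a mean of at least 5 CPM, which leaves out both members, sex had 6408, strain 8529 and treatment 2240. With limma voom diet by sex had 52 and treatment by sex 282, and without the libraries with Xist on the other sex's side diet by sex had 55. In the upper range 6 of the 10 genes most like Rab15 were shared with all libraries. Counts near 0 limit BC048679 in the strains where it was lowest.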

Other observations

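The summed level of 8 liver markers had medians of 2.22 to 2.81 CPM in the 4 diet and treatment groups, and reached 6461 CPM in 1 library of untreated animals on 10% fat, 1652 CPM among those on 44% fat, 2556 CPM among treated animals on 10% fat and 1681 CPM among those on 44% fat. Within the 6 strains with a CC042/GeniUncJ parent the residual r between Rab15 and BC048679 was 0.442 over 214 libraries, and 0.311 over the 489 libraries of the other strains. Across the 20 strains, the diet differences of both genes had r = 0.350 in untreated animals, which was -0.067 without the 2 strains farthest in Rab15, and r = 0.450 in treated animals, which was 0.427 without 2 such strains.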
